A study of Rattus norvegicus and Mus musculus with 251 samples.

Results

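Late activity-regulated effectors is the name used here for activity-regulated genes whose products act at synapses, in secretion or in signalling. Many are transcribed after the first wave of activity-induced transcription factors, but the order of induction was not measured in these libraries. Here 10 of them were followed in mouse brain: Bdnf, Vgf, Nptx2, Homer1, Scg2, Inhba, Pcsk1, Ptgs2, Gadd45b and Sik1. They were chosen by name from the 46078 gene identifiers of the mouse count table. All 10 passed the filter on low counts in both regions, so each was tested in every comparison. The 62 mouse libraries came from C57BL6J mice of both sexes, 26 from females and 36 from males, that drank a saline or a morphine solution. RNA was taken from 0.5 mm punches of the prefrontal cortex (PFC) or the nucleus accumbens (NAc) and sequenced as total RNA with paired 75-base reads. The PFC held 6 saline libraries, 8 labelled as chronic morphine, 9 taken 24 h after morphine and 7 taken 2 weeks after it. The NAc held 7, 8, 9 and 8 libraries of the same 4 treatments. The labels give no intake per mouse.

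When a neuron fires strongly, calcium entering the cell activates CREB and other factors that are already present, and transcription factors such as Fos and Egr1 are made within minutes. Many effector genes follow over the next hours, while some, such as Sik1, are themselves induced by CREB. Bdnf, brain-derived neurotrophic factor, acts through the receptor TrkB (Ntrk2) and strengthens synapses. In the striatum, BDNF protein is largely supplied by axons from the cortex rather than made locally.

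The other secreted members are Vgf and Scg2, granin-type precursors stored in dense-core vesicles and cut into peptides, and Inhba, the subunit that forms activin A. Pcsk1 is the prohormone convertase PC1/3, which cuts such precursors. Nptx2, a neuronal pentraxin, gathers AMPA receptors at excitatory synapses. Homer1 gives a long scaffold protein of the postsynaptic density and a short, activity-induced form that competes with it; counts per gene do not separate these forms. Ptgs2 is cyclooxygenase-2, the inducible enzyme of prostaglandin synthesis. Gadd45b takes part in stress signalling and in activity-dependent DNA demethylation. Sik1, salt-inducible kinase 1, is induced by CREB and phosphorylates the CREB coactivators of the CRTC family, which holds them outside the nucleus.

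The libraries held 5.18 to 44.0 M reads in genes, with a median of 31.7 M. The lowest total belonged to PFC_10, a female 2-week library in which 21.1% of reads were not aligned and whose mean correlation with its own group was 0.820. The labels call the cell type neuron, but the punches held other cells too. The 4 oligodendrocyte markers summed to 2762 to 8017 CPM (counts scaled by library size) in the PFC and 3521 to 12189 CPM in the NAc. The 7 markers of cortical projection neurons, such as Slc17a7, summed to 1740 to 4430 CPM in the PFC and to 43.9 to 669 CPM in the NAc. The 7 markers of striatal projection neurons, such as Drd1 and Drd2, summed to 145 to 329 CPM in the PFC and to 205 to 6175 CPM in the NAc. Low sums within the NAc belonged to NAc_6 (saline) with 205 CPM, NAc_25 (chronic) with 261 CPM, NAc_2 (saline) with 592 CPM and NAc_23 (24 h) with 699 CPM. In the PFC, PFC_25 (chronic) had the lowest cortical sum, 1740 CPM, and PFC_31 (chronic) had a choroid plexus sum of 3434 CPM. Each called member is also given without these 7 libraries, a choice made after seeing the data. In bulk tissue, fewer cells of a type and less RNA per cell cannot be told apart. Nothing in the labels says that the libraries of a group are separate mice, so p-values measure the spread between libraries.

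The sequence before a gene's start is where CREB and AP-1 factors bind in many activity-regulated genes, so the windows of the members that the results turn on are shown. The RefSeq promoter table used here holds rat genes, the second species of the series, in build GRCr8, so the windows below are rat sequences and not those of the mice measured. It gave 14 windows for 9 of the 10 members, 6 of them for Bdnf. Each window is 250 bases that end at the gene's start, written 5′ to 3′ on the gene's strand. Capitals mark the cAMP response element TGACGTCA or its half-site TGACG, which reads CGTCA on the other strand. Sik1 (chr20:9958647-9958896, minus strand) and Gadd45b (chr7:9430719-9430968, minus strand) are shown because their counts differed after morphine, Bdnf (chr3:116637608-116637857, plus strand) because it is the best known of the 10, and Scg2 (chr9:88256867-88257116, minus strand) because it was the member with the higher level in the NAc.
Sik1: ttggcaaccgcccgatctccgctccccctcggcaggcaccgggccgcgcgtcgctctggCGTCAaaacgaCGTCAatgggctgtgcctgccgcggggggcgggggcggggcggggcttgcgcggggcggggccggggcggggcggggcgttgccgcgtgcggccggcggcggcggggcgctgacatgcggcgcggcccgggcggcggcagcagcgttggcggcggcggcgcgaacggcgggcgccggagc
Gadd45b: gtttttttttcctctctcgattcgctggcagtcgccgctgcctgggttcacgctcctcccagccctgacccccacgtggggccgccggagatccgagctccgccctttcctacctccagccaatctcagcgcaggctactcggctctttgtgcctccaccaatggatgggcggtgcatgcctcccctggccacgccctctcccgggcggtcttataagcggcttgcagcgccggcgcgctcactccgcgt
Bdnf: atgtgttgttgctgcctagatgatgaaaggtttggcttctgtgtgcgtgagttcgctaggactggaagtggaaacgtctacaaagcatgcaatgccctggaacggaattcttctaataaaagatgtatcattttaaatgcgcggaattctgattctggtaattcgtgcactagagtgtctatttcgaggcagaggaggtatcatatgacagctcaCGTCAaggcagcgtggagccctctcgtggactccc
Scg2: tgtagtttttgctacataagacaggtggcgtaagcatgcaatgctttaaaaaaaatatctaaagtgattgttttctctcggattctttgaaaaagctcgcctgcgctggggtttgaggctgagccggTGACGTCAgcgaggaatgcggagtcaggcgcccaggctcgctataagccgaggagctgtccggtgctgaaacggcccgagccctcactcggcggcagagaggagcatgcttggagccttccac
The Sik1 window held 2 half-sites, 180 and 191 bases before the start, and the Gadd45b window held none. The Bdnf window shown held 1 half-site, 35 bases before the start, and the other windows of Bdnf held none. The full element was found in the windows of Scg2, 123 bases before the start, and of Vgf. It stood in 2 of the 14 member windows and in 1.59% of all 33469 rat windows of this length. The half-site, searched on both strands and counted also where it lies inside the full element, stood in 18.2% of all windows and in windows of 5 members: Bdnf, Nptx2, Scg2, Sik1 and Vgf. The AP-1 motif TGANTCA stood in 6.34% of all windows and in 1 of the 14 member windows, a Bdnf window. A match is a string of letters, not a measured binding site.

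In the PFC, the first comparison asked how the members stood in mice on chronic morphine against mice on saline. Sik1 and Gadd45b fell, and the other 8 members did not pass the test. Sik1 ran at 24.6 to 66.1 CPM in the 6 saline libraries, with a median of 40.5. The 8 chronic libraries ran from 10.9 to 20.2 CPM with a median of 14.5, so the highest chronic library lay below the lowest saline one. The fitted level was 0.392 of that in saline mice, a log2 difference of -1.35 ± 0.18 (SE), with an adjusted p of 3.99e-05 by edgeR's quasi-likelihood test over all genes. Gadd45b ran at 16.7 to 20.5 CPM in saline libraries with a median of 20.04. In chronic libraries it ran at 6.28 to 15.7 CPM with a median of 11.1, again without overlap. Its log2 difference was -0.77 ± 0.18, or 0.585 of the saline level, with an adjusted p of 0.0385 in edgeR.

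Of 17966 genes tested in this comparison, 0.417% passed an adjusted p of 0.05, and 0.312% passed it in the lower direction, against 2 of the 10 members. Every chronic library lay below every saline library for 0.373% of genes. Sik1 was called in each of the 30 fits that left out 1 PFC library, with log2 differences from -1.44 to -1.23. Gadd45b was called in 16 of those 30. Its adjusted p reached 0.140 without PFC_25, and the call was lost without any 1 of the 6 saline libraries. Without PFC_10, PFC_25 and PFC_31 together, Sik1 stood at -1.40 (adjusted p 6.66e-05) and Gadd45b at -0.63 (adjusted p 0.0384). The cortical markers summed to 2316 to 3529 CPM in saline and 1740 to 4430 CPM in chronic libraries, and 0 of the 7 were called. With the cortical marker score in the fit, Sik1 stood at -1.36 and Gadd45b at -0.80, both still called.

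The secreted factors and the synaptic members lay on the other side of 0 or near it. Bdnf ran at 38.3 to 48.0 CPM in saline libraries with a median of 41.8, and at 29.8 to 56.8 CPM in chronic libraries with a median of 42.9. The log2 difference of Bdnf was -0.04, with a 95% interval of -0.27 to 0.19. The chronic libraries of Bdnf spread on both sides of the saline ones. Nptx2 ran at 69.7 to 117 CPM in saline and 74.2 to 197 CPM in chronic libraries, with medians of 85.8 and 136. Although 7 of 8 chronic libraries lay above the highest saline one, the log2 difference of 0.58 ± 0.19 had an adjusted p of 0.309 in edgeR. Scg2 ran at 162 to 231 CPM in saline and at 210 to 365 CPM in chronic libraries, 6 of them above the highest saline library, with a log2 difference of 0.37 ± 0.12 and an adjusted p of 0.337 in edgeR.

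Vgf, Pcsk1, Inhba and Homer1 had positive log2 differences of 0.26, 0.46, 0.73 and 0.44, with adjusted p-values of 0.764, 0.684, 0.611 and 0.611 in edgeR. Homer1 ran at 139 to 250 CPM in saline libraries, and at 225 to 365 CPM in the chronic libraries other than PFC_25, which held 103 CPM. Without PFC_10, PFC_25 and PFC_31, Homer1 was called, at a log2 difference of 0.57 and an adjusted p of 0.0262 in edgeR. Without 1 library at a time it was called in 0 of 30 fits, with a lowest adjusted p of 0.185. Ptgs2 was lower in its median, 15.8 against 19.1 CPM, with a log2 difference of -0.49 ± 0.22 and an adjusted p of 0.559. At an unadjusted p of 0.05, 7 of the 10 members and 7.91% of all genes passed. The median log2 difference over the 10 members was 0.31, beside 0.01 over all genes tested.

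**Figure D1:**
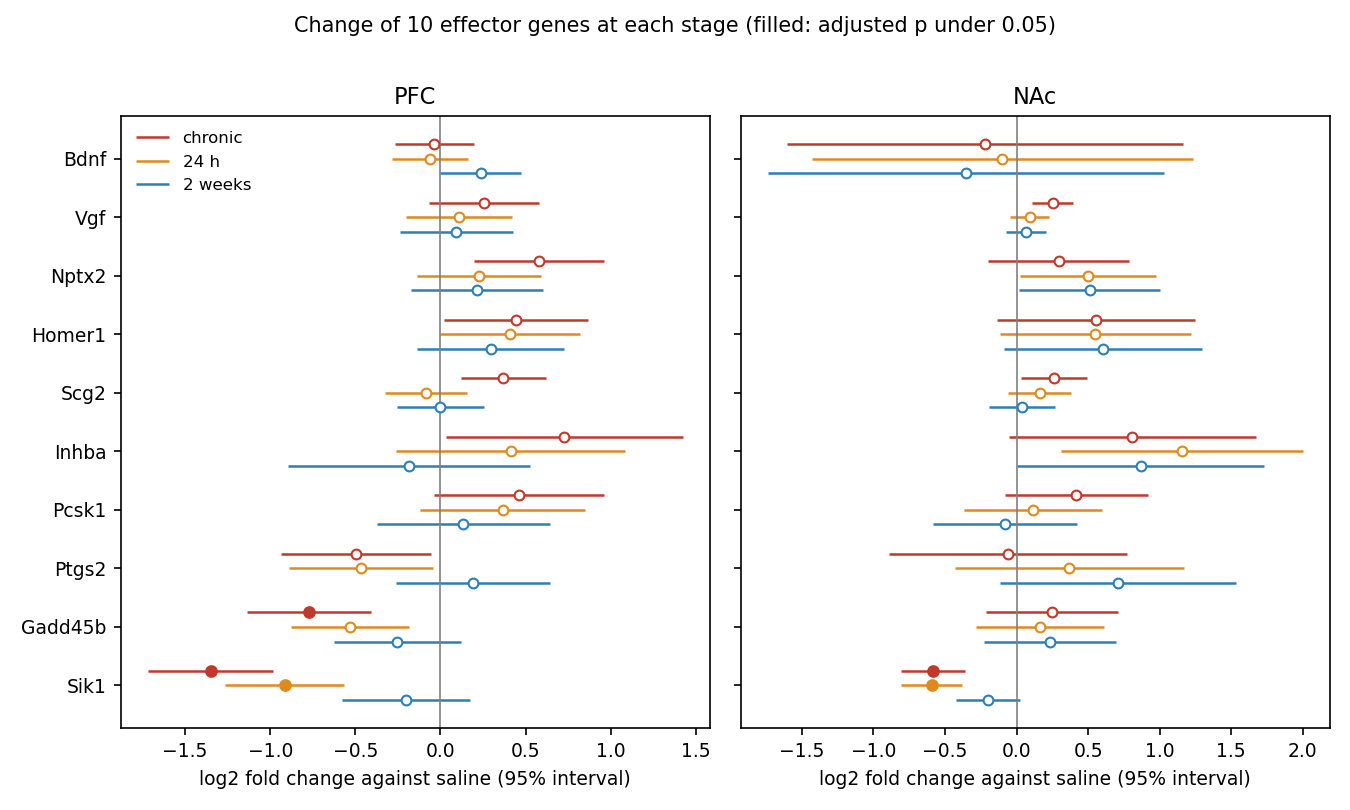
Log2 difference from saline (horizontal axis) for each of the 10 genes in the PFC and the NAc, at chronic morphine, 24 h and 2 weeks; bars are 95% intervals and filled points passed an adjusted p of 0.05. Sik1 lies to the left of 0 at chronic morphine and 24 h in both regions, and the intervals of Bdnf in the NAc are the widest.

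At 24 h after morphine the PFC showed 1 member below saline, Sik1. The 9 libraries ran from 9.93 to 33.9 CPM with a median of 20.9, and all 9 lay below the saline median. The log2 difference of Sik1 was -0.92 ± 0.17, or 0.530 of the saline level, with an adjusted p of 0.0141 in edgeR. Against this 1 of 10, 0.0779% of all genes were called, and 0.0724% in the lower direction. Gadd45b lay below the lowest saline library in 8 of 9 libraries, with a range of 8.22 to 24.6 CPM and a median of 11.2. Because PFC_20 held 24.6 CPM, above every saline library, the groups overlapped, and the log2 difference of -0.53 ± 0.17 had an adjusted p of 0.768. Ptgs2 ran at 8.72 to 17.6 CPM, with 9 of 9 libraries below the saline median, a log2 difference of -0.47 ± 0.21 and an adjusted p of 1. Bdnf ran at 31.1 to 51.6 CPM, with a log2 difference of -0.06 and an interval from -0.28 to 0.16. The log2 differences of Homer1 (0.41), Inhba (0.41), Pcsk1 (0.36), Nptx2 (0.23), Vgf (0.11) and Scg2 (-0.09) each had an adjusted p of 1. Without PFC_10, PFC_25 and PFC_31 together, Sik1 stood at -0.92 (adjusted p 0.00436). The call on Sik1 was lost without the saline library PFC_3 (adjusted p 0.163) or PFC_6 (0.098), and with sex as an additive term (0.119).

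At 2 weeks after morphine none of the 10 members passed in the PFC, by edgeR or by DESeq2, and 0 had an unadjusted p under 0.05 in edgeR. The background was 0.00557% of genes called and 5.02% with an unadjusted p under 0.05. Sik1 ran at 20.6 to 44.7 CPM with a median of 36.3, close to the saline median of 40.5, with a log2 difference of -0.20 and an interval from -0.58 to 0.17. Bdnf ran at 44.7 to 60.7 CPM with a median of 49.8, and 4 of 7 libraries lay above the highest saline library. Its log2 difference was 0.24 ± 0.12 with an unadjusted p of 0.0501 and an adjusted p of 0.949 in edgeR. Gadd45b ran at 11.4 to 21.3 CPM around a median of 15.98, between its chronic and its saline medians. The log2 differences of the other 7 members ran from -0.19 for Inhba to 0.30 for Homer1. That of Ptgs2 was 0.19, and -0.20 without PFC_10.

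The steps between the morphine stages gave 0 called members in edgeR. From chronic morphine to 24 h, 3 members had an unadjusted p under 0.05 in edgeR, as did 5.04% of all genes. DESeq2 called 1 member (Scg2), and 0.0278% of all genes were called in edgeR. Over the alternative settings, DESeq2 among them, 1 to 35 genes were called, beside 5 in the main analysis. Scg2 had medians of 248 CPM at chronic morphine and 186 CPM at 24 h, a log2 difference of -0.45 ± 0.11 with an adjusted p of 0.164. From 24 h to 2 weeks, 3 members had an unadjusted p under 0.05 in edgeR, as did 8.5% of all genes. DESeq2 called 1 member (Sik1), and 0.15% of all genes were called in edgeR. The alternative settings gave 23 to 127 called genes for this step, beside 27 in the main analysis. Sik1 stood 0.71 ± 0.17 higher on the log2 scale at 2 weeks, with an adjusted p of 0.0797. Without PFC_10, PFC_25 and PFC_31 it stood 0.81 higher and was called (adjusted p 0.0231). Ptgs2 and Bdnf had log2 differences of 0.66 ± 0.20 and 0.30 ± 0.11 in this step, with adjusted p-values of 0.278 and 0.379. For Ptgs2 the 2-week library PFC_10 held 44.3 CPM, and without it the difference was 0.27 (adjusted p 0.912). With 2 surrogate variables it was 0.25. The stage comparisons share the saline libraries or the 24 h libraries, so their values are not independent.

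**Figure D2:**
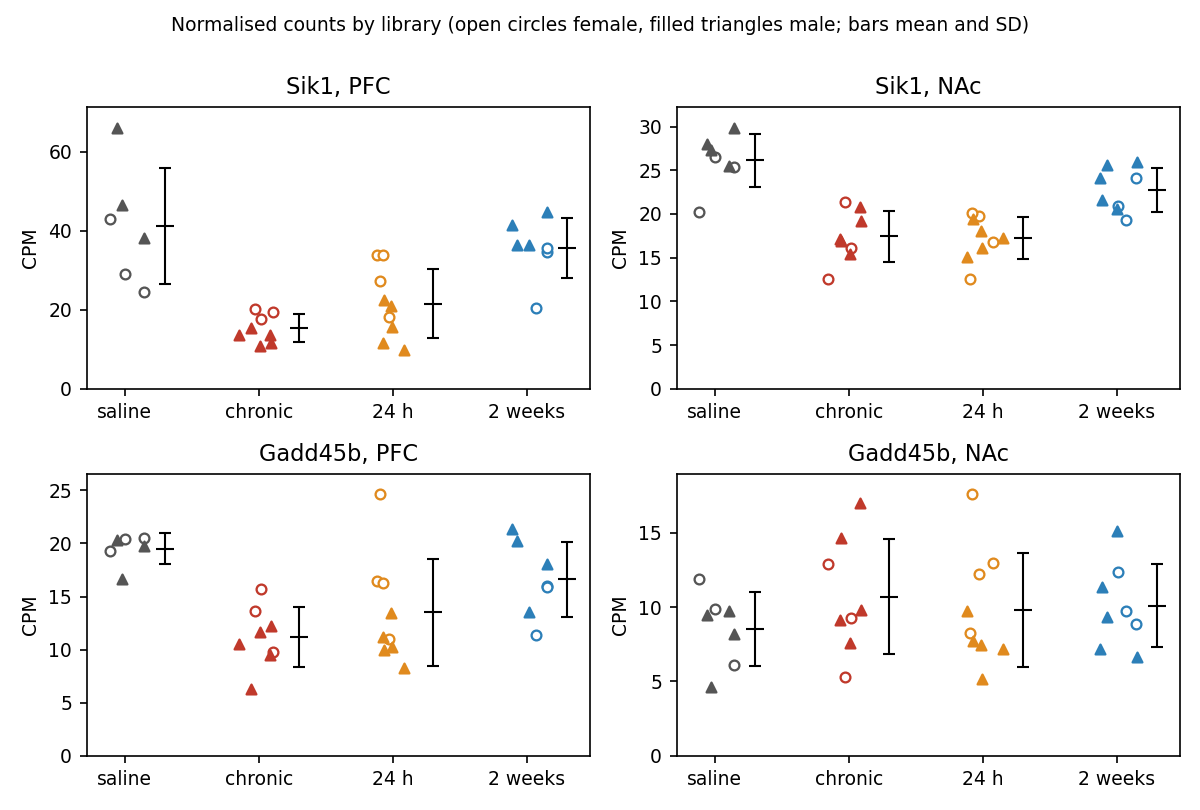
CPM of Sik1 and Gadd45b in each library (vertical axis) by treatment in the PFC and the NAc; open circles are females, filled triangles males, and bars give the mean and SD. In the PFC no chronic library of either gene reaches the saline libraries, while in the NAc Gadd45b overlaps at all stages and Sik1 does not overlap between saline and 24 h.

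The study used both sexes, so each effect was also compared between males and females. For chronic morphine in the PFC, 0 members were called in edgeR and in DESeq2, and 2 had an unadjusted p under 0.05. Of all genes, 0% were called and 2.63% had an unadjusted p under 0.05. For 24 h, 0 members were called by either tool, and 3 had an unadjusted p under 0.05. Of all genes, 0.0111% were called and 2.69% had an unadjusted p under 0.05. For 2 weeks, 0 members were called by either tool, and 1 had an unadjusted p under 0.05. Of all genes, 0% were called and 5.02% had an unadjusted p under 0.05. Sik1 had the smallest p of these members. In males it ran at 38.1 to 66.1 CPM in the 3 saline libraries and at 9.93 to 22.4 CPM in the 5 libraries of 24 h. In females it ran at 24.6 to 43.0 CPM in the 3 saline libraries and at 18.3 to 33.9 CPM in the 4 libraries of 24 h. The males did not overlap and the females did. The difference between the sexes in the effect of 24 h was -1.45 ± 0.35 on the log2 scale, with an adjusted p of 0.22 in edgeR. For chronic morphine the same quantity for Sik1 was -1.18 ± 0.36, with an adjusted p of 0.837. Nptx2 at 24 h (-1.05 ± 0.36) and Inhba at chronic morphine (1.54 ± 0.68) each had an adjusted p of 1.

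In the NAc, Sik1 again fell with chronic morphine, and no other member passed. Sik1 ran at 20.2 to 29.9 CPM in the 7 saline libraries with a median of 26.5, and at 12.6 to 21.3 CPM in the 8 chronic libraries with a median of 17.1. All 8 chronic libraries lay below the saline median and 6 below the lowest saline library. The log2 difference was -0.58 ± 0.11, or 0.667 of the saline level, with an adjusted p of 0.00484 in edgeR. In this comparison 1.69% of 18382 genes were called, 0.898% in the lower direction, against 1 of 10 members. Sik1 was called in each of the 32 fits that left out 1 NAc library and without NAc_2, NAc_6, NAc_23 and NAc_25 together (log2 difference -0.67, adjusted p 0.0127).

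Vgf, the granin-type precursor, was close to the threshold. It ran at 318 to 363 CPM in saline libraries and at 321 to 478 CPM in chronic libraries, with medians of 327 and 408, and 7 of 8 chronic libraries lay above the highest saline one. The log2 difference of Vgf was 0.25 ± 0.07 with an adjusted p of 0.0563 in edgeR, and DESeq2 gave an adjusted p of 0.013. Scg2 had medians of 711 CPM in saline and 826 CPM in chronic libraries, a log2 difference of 0.26 ± 0.11 and an adjusted p of 0.249. Gadd45b, which fell in the PFC, had medians of 9.44 and 9.54 CPM here, with a log2 difference of 0.25 and an interval from -0.22 to 0.71. Inhba (0.81), Homer1 (0.56), Pcsk1 (0.42), Nptx2 (0.29) and Ptgs2 (-0.06) had adjusted p-values of 0.373 to 0.967.

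At 24 h Sik1 was again the 1 member called in the NAc, below saline. The 9 libraries ran from 12.6 to 20.1 CPM with a median of 17.2, and all 9 lay below the lowest saline library, which held 20.2 CPM. The log2 difference was -0.59 ± 0.10, or 0.663 of the saline level, with an adjusted p of 0.0146 in edgeR. Of all genes 0.163% were called, 0.0598% in the lower direction, and every 24 h library lay below every saline library for 0.0598% of genes. The call was lost without NAc_1 (adjusted p 0.0839) or NAc_2 (0.0619), both saline. It was also lost without NAc_2, NAc_6, NAc_23 and NAc_25 together, at a log2 difference of -0.55 and an adjusted p of 0.0792. Inhba had medians of 1.75 CPM in saline and 5.09 CPM at 24 h, with a log2 difference of 1.16 ± 0.41 and an adjusted p of 0.258. Nptx2 had medians of 23.7 and 34.4 CPM, a log2 difference of 0.50 and an adjusted p of 0.395. Homer1 (0.55), Ptgs2 (0.37), Gadd45b (0.16), Scg2 (0.16), Pcsk1 (0.12) and Vgf (0.09) had adjusted p-values of 0.501 to 0.86.

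At 2 weeks 0 members were called in the NAc by edgeR or DESeq2, and 2 had an unadjusted p under 0.05. Of all genes, 0.00544% were called and 6.36% had an unadjusted p under 0.05. Sik1 ran at 19.3 to 25.96 CPM with a median of 22.9, and 8 of 8 libraries lay below the saline median, at a log2 difference of -0.20 and an adjusted p of 0.832. Nptx2 (0.51, adjusted p 0.747) and Inhba (0.87, adjusted p 0.779) were the 2 members under the unadjusted threshold. The log2 differences of Ptgs2 (0.71), Homer1 (0.61), Gadd45b (0.23), Vgf (0.07), Scg2 (0.04) and Pcsk1 (-0.08) had adjusted p-values of 0.833 to 0.968. From chronic morphine to 24 h, 0.0762% of genes were called and 8.8% had an unadjusted p under 0.05. Of the members, 0 were called by either tool and 1 had an unadjusted p under 0.05. That member was Vgf, at -0.16 ± 0.07 (adjusted p 0.44), while Sik1 differed by -0.01, with an interval from -0.22 to 0.20. From 24 h to 2 weeks, 0 members were called in edgeR, 1 had an unadjusted p under 0.05, and DESeq2 called 1 (Sik1). Of all genes, 0.277% were called in edgeR and 9.5% had an unadjusted p under 0.05. The alternative settings, DESeq2 among them, gave 37 to 147 called genes, beside 51 in the main analysis. Sik1 stood 0.39 ± 0.10 higher at 2 weeks on the log2 scale, with an adjusted p of 0.128 in edgeR.

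Differences between the sexes were called for 0 members at each NAc stage by edgeR and by DESeq2, and 0 members had an unadjusted p under 0.05. The background was 0.0272% of genes called at chronic morphine, 0.087% at 24 h and 0% at 2 weeks. At an unadjusted p under 0.05 it was 6.88%, 6.38% and 4.46%.

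Bdnf was low and uneven in the NAc, and its stage effects there were not measured closely. The 7 saline libraries ran from 0.765 to 7.36 CPM with a median of 2.62, and the 8 chronic libraries from 0.543 to 9.69 CPM with a median of 0.924. The 9 libraries of 24 h ran from 0.511 to 19.1 CPM and those of 2 weeks from 0.379 to 4.51 CPM, both with a median of 2.22. The 95% intervals of the log2 difference were -1.60 to 1.16 at chronic morphine, -1.43 to 1.23 at 24 h and -1.74 to 1.03 at 2 weeks, so a log2 difference of 1 in either direction lay within each interval. The library with 19.1 CPM, NAc_24, also had the highest sum of cortical projection neuron markers in the NAc, 669 CPM. The next highest sum was 131 CPM, in NAc_19.

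**Figure D3:**
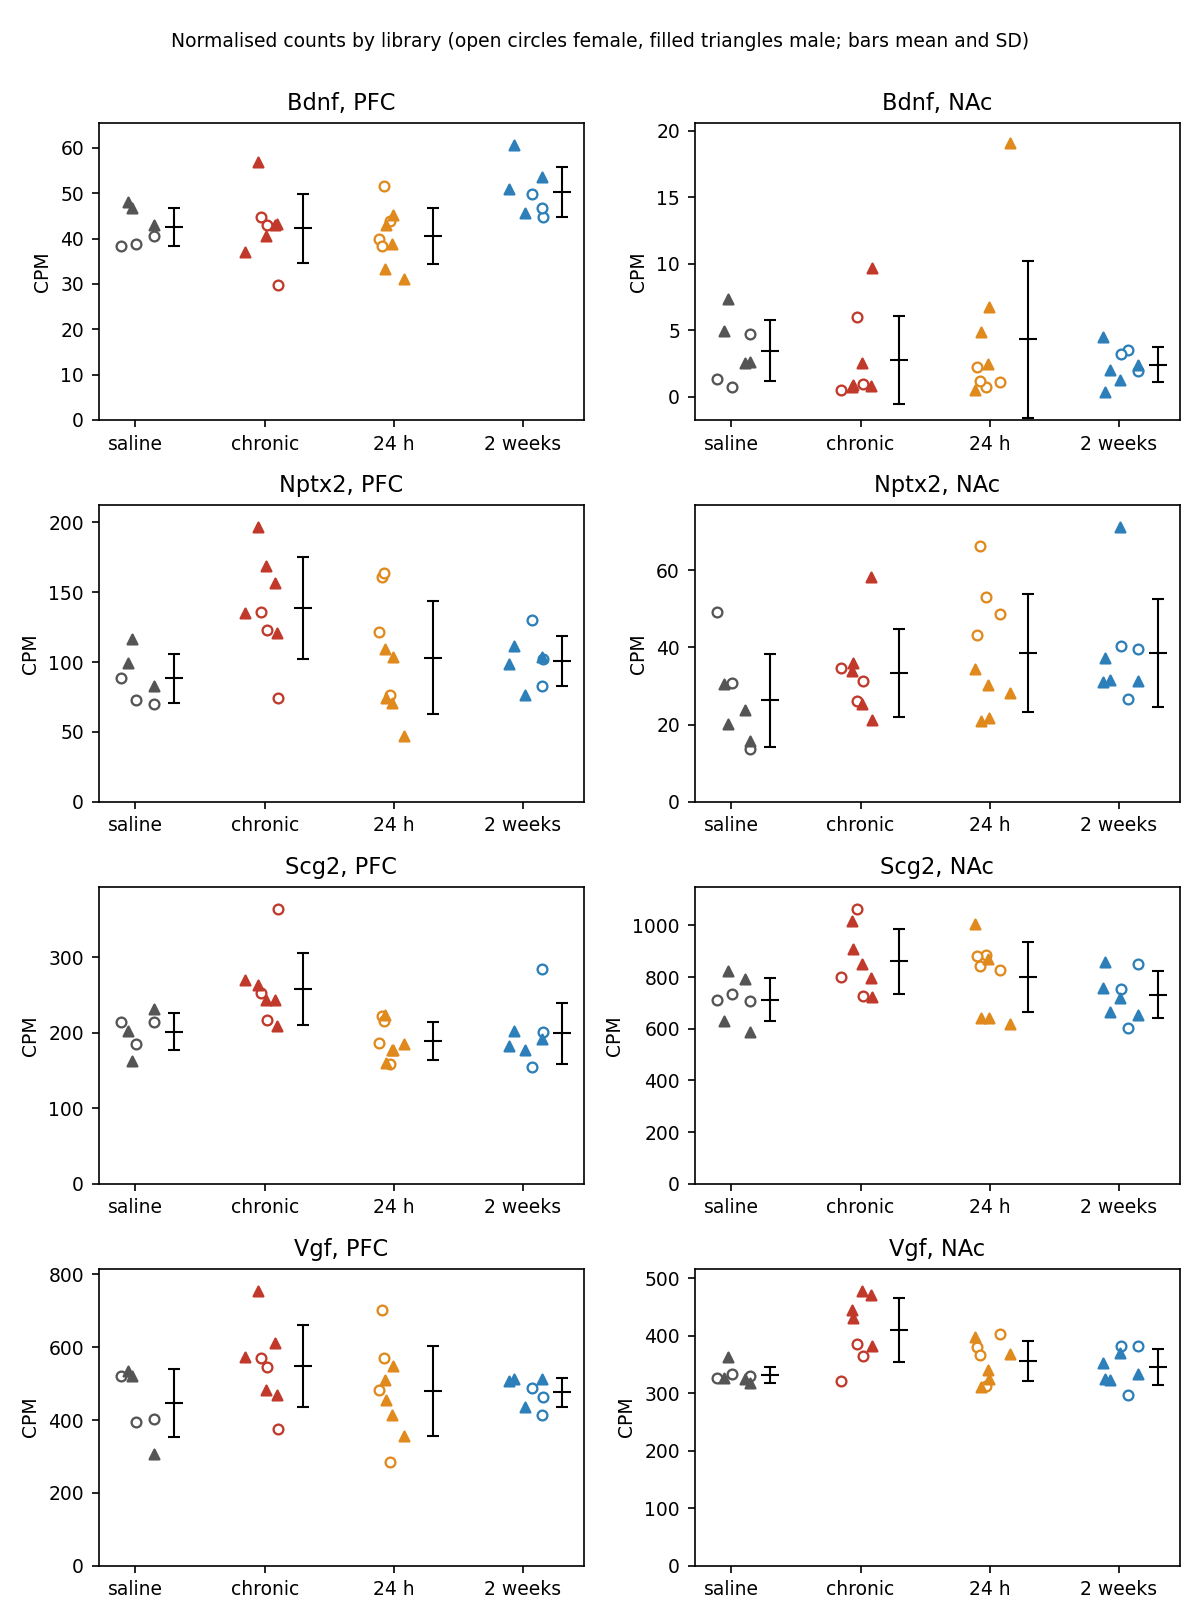
CPM of Bdnf, Nptx2, Scg2 and Vgf in each library (vertical axis) by treatment in the PFC and the NAc; open circles are females, filled triangles males, and bars give the mean and SD. Bdnf lies between 29.8 and 60.7 CPM in the PFC and at 19.1 CPM or less in the NAc, and the chronic libraries of Nptx2 and Scg2 in the PFC lie mostly above the saline ones.

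Several members varied in the NAc with the level of striatal neuron markers. A striatal score, the mean log2 CPM of the 7 striatal markers, was compared with each member over 32 libraries, as deviations from the mean of the same treatment and sex. Homer1 followed it most closely, with Pearson's r = 0.97 and Spearman's rho = 0.95, each with an adjusted permutation p of 5e-05 over 20 relations, from the smallest p that 100000 permutations can give. Leaving out NAc_6 and NAc_25, the libraries farthest from the median score, left r at 0.96. Gadd45b (r = 0.86, rho = 0.88, 0.84 without the same libraries) and Inhba (r = 0.86, rho = 0.83, 0.87 without them) also moved with the score, with adjusted permutation p-values of 5e-05 for r. Nptx2 (r = 0.61, rho = 0.70, 0.74 without them, adjusted permutation p 0.00094) and Ptgs2 (r = 0.64, rho = 0.60, 0.58 without them, 0.002) had lower coefficients.

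Pcsk1 and Bdnf ran against the striatal score. Pcsk1 had r = -0.82 and rho = -0.77 (r = -0.78 without NAc_6 and NAc_25; adjusted permutation p 0.00063), and Bdnf had r = -0.63 and rho = -0.71 (r = -0.60 without them; adjusted permutation p 0.0016). The same 2 genes went with the cortical marker score within the NAc. Bdnf had r = 0.87 and rho = 0.86 with it, and r = 0.81 without NAc_17 and NAc_24 (adjusted permutation p 5e-05). Pcsk1 had r = 0.76 and rho = 0.82, and r = 0.77 without them (adjusted permutation p 0.00012). Sik1, Vgf and Scg2 passed with neither score: for Sik1 r was -0.27 with the striatal score (adjusted permutation p 0.44) and 0.04 with the cortical score (0.87).

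The striatal markers summed to 205 to 3984 CPM in saline libraries, 261 to 6175 CPM in chronic, 699 to 5521 CPM at 24 h and 1780 to 5326 CPM at 2 weeks, and 0 of the 7 were called at any stage. All 7 had reads in every NAc library, the lowest value being 6.42 CPM. The mean striatal score was 7.18 ± 1.48 (SD) in saline and 7.86 ± 1.43 in chronic libraries. It was 7.80 ± 0.94 at 24 h and 7.97 ± 0.55 at 2 weeks. Homer1, Inhba, Gadd45b, Nptx2 and Ptgs2 went with this score, and its part in their stage differences is not given here. With the striatal score as a covariate, Sik1 stood at -0.56 for chronic morphine (adjusted p 0.00256) and at -0.55 for 24 h (0.0114). Vgf (0.26, adjusted p 0.0242) and Pcsk1 (0.56, adjusted p 0.0193) were then also called for chronic morphine, higher than in saline. That covariate was added after the data were seen. In the PFC, the cortical marker score moved with 2 of the 10 members: Vgf (r = 0.66, rho = 0.75, r = 0.66 without PFC_25 and PFC_26; adjusted permutation p 0.0011) and Nptx2 (r = 0.62, rho = 0.64, 0.54 without them; 0.011).

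**Figure D4:**
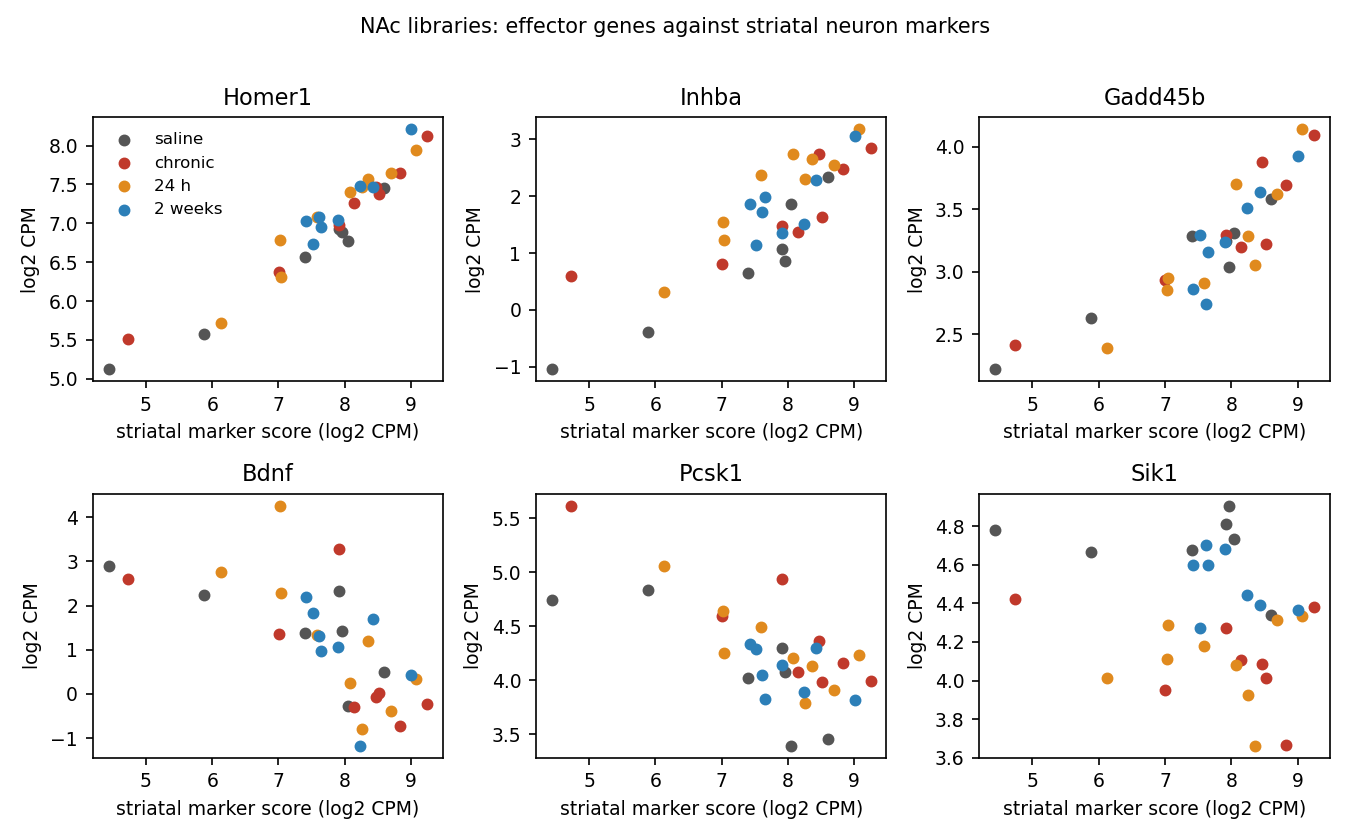
Log2 CPM of Homer1, Inhba, Gadd45b, Bdnf, Pcsk1 and Sik1 (vertical axes) against the striatal marker score (mean log2 CPM of 7 markers, horizontal axis) in the 32 NAc libraries, coloured by treatment. Homer1, Inhba and Gadd45b rise along the axis, Bdnf and Pcsk1 go down, and Sik1 shows no slope that passed the test.

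Whether the members answered morphine differently in the 2 regions was tested in 1 fit over all 62 libraries. For chronic morphine 0 members were called by edgeR or DESeq2, and 2 had an unadjusted p under 0.05. Of 19266 genes, 0.0311% were called and 4.21% had an unadjusted p under 0.05. For 24 h 0 members were called by either tool, and 1 had an unadjusted p under 0.05. Of all genes, 0.0208% were called and 3.52% had an unadjusted p under 0.05. For 2 weeks 0 members were called by either tool, and 0 had an unadjusted p under 0.05. Of all genes, 0.00519% were called and 4.49% had an unadjusted p under 0.05. The NAc effect minus the PFC effect of chronic morphine was 1.04 ± 0.29 for Gadd45b (adjusted p 0.53) and 0.78 ± 0.21 for Sik1 (adjusted p 0.435), on the log2 scale. So the fall of Gadd45b in the PFC was not shown to differ from its NAc value, nor that of Sik1 between the regions. The interval for Bdnf at chronic morphine ran from -1.52 to 1.18.

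More genes were called between the regions than between any of the stages. In saline mice 9 of the 10 members were called between the NAc and the PFC, 8 lower and 1 higher in the NAc, where 35.8% of all genes were called, 18.4% lower and 17.4% higher. Bdnf ran at 38.3 to 48.0 CPM in the PFC and at 0.765 to 7.36 CPM in the NAc, a log2 difference of -3.76 ± 0.53 (adjusted p 8.92e-08 in edgeR). Ptgs2 ran at 12.9 to 26.4 CPM against 0.454 to 3.86 CPM, a log2 difference of -3.17 ± 0.36 (adjusted p 2.07e-10). Nptx2 ran at 69.7 to 117 CPM against 13.8 to 49.3 CPM, a log2 difference of -1.74 ± 0.23. Gadd45b ran at 16.7 to 20.5 CPM against 4.60 to 11.9 CPM, a log2 difference of -1.19 ± 0.22. For these 4 genes every NAc library lay below every PFC library, as for 11.9% of all genes.

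Scg2 went the other way. It ran at 162 to 231 CPM in the PFC and at 589 to 825 CPM in the NAc, a log2 difference of 1.81 ± 0.13 (adjusted p 5.58e-17 in edgeR), without overlap, as for 9.76% of all genes. Pcsk1 (-1.06 ± 0.26), Homer1 (-0.96 ± 0.30), Sik1 (-0.65 ± 0.16) and Vgf (-0.44 ± 0.13) were lower in the NAc with overlapping libraries. Inhba did not pass, at -0.52 ± 0.40 (adjusted p 0.323). Homer1 lost its call without the libraries numbered 2 (adjusted p 0.0933) or 6 (0.058), whose NAc libraries NAc_2 and NAc_6 are among those with low striatal sums. Vgf lost its call without the libraries numbered 3 (0.0627). Without the 7 libraries that stand apart, the 9 calls were kept, and Bdnf stood at -4.47, Pcsk1 at -1.46 and Homer1 at -0.62. That moved Inhba to -0.12 (adjusted p 0.807).

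Per kilobase of exon, the order of the saline levels differed between the regions. In the PFC the mean CPM per kilobase was 150 ± 31.2 (SD, n = 6) for Vgf, 80.2 ± 9.76 for Scg2, 34.9 ± 6.94 for Nptx2, 16.5 ± 3.70 for Homer1 and 12.3 ± 0.928 for Gadd45b. It went on with 8.03 ± 2.87 for Sik1, 6.85 ± 0.660 for Bdnf, 6.75 ± 1.46 for Pcsk1, 4.14 ± 1.14 for Ptgs2 and 0.476 ± 0.226 for Inhba. Homer1 and Gadd45b, Sik1 and Bdnf, and Bdnf and Pcsk1 were neighbours closer than the sum of their SDs. In the NAc the precursor Scg2 came first with 284 ± 33.2 (SD, n = 7), before Vgf with 111 ± 4.88. Then came Nptx2 with 10.4 ± 4.77, Homer1 with 8.37 ± 3.97, Gadd45b with 5.38 ± 1.56, Sik1 with 5.09 ± 0.592 and Pcsk1 with 3.29 ± 1.26; each step in this run of 5 was smaller than the summed SDs. Bdnf (0.558 ± 0.372), Ptgs2 (0.451 ± 0.309) and Inhba (0.335 ± 0.254) came last and likewise did not differ beyond their spread.

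**Figure D5:**
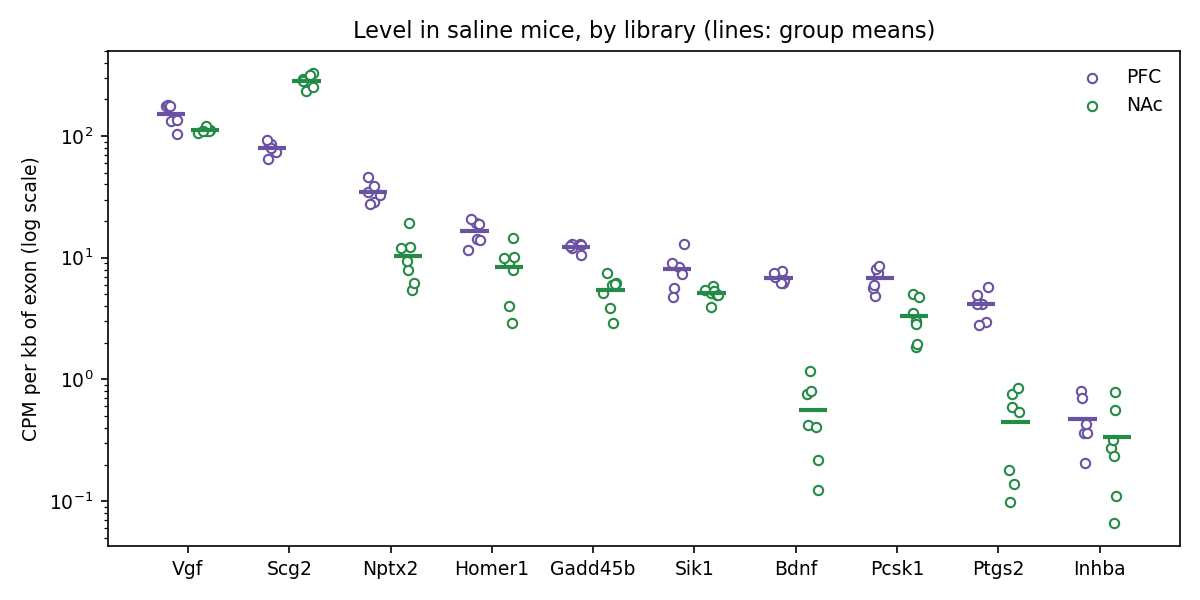
CPM per kilobase of exon (log axis) of the 10 genes in the saline libraries of the PFC (6) and the NAc (7), 1 point a library. Bdnf, Ptgs2, Nptx2 and Gadd45b lie lower in all NAc libraries, and Scg2 lies higher.

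The genes around each member were followed through lists of their partners. In the PFC under chronic morphine, 0 of 8 tested genes of the BDNF receptor and kin list, 0 of 8 dense-core vesicle genes, 0 of 3 pentraxin genes and 0 of 5 Homer partners were called. The same held for 0 of 8 activin genes, 0 of 9 prostaglandin genes, 0 of 2 GADD45 kin and 0 of 6 SIK kin and CREB coactivators, all by edgeR; at an unadjusted p of 0.05 these 8 lists held 3, 1, 0, 0, 1, 0, 1 and 2 genes. Over all 9 lists of partners and other effectors, 61 genes, DESeq2 called 3 where edgeR called 1. In edgeR 12 of the 61 had an unadjusted p under 0.05. Of all genes tested in edgeR, 0.417% were called and 7.91% had an unadjusted p under 0.05. The alternative settings, DESeq2 among them, gave 49 to 182 called genes, beside 75 in the main analysis. Of 12 other activity-regulated effectors, 1 was called, Plk3, a stress-induced polo-like kinase, at a log2 difference of -0.84 ± 0.13 (adjusted p 0.000465). Of 8 early transcription factors, 5 were called and lower: Fos (-2.17 ± 0.19), Junb (-1.87 ± 0.20), Egr1 (-1.30 ± 0.22), Egr2 (-3.35 ± 0.33) and Nr4a1 (-1.92 ± 0.19). The median log2 difference of the early factors was -1.59, beside 0.31 for the 10 effectors.

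At 24 h, Fos (-1.37), Junb (-1.26), Egr2 (-1.75) and Nr4a1 (-1.19) were below saline in the PFC, beside Sik1. In that comparison 0.0779% of all genes were called. Of the 61 partners and other effectors, 0 were called by edgeR or DESeq2. In edgeR 3 had an unadjusted p under 0.05, as did 3.03% of all genes. From 24 h to 2 weeks the same 4 factors rose, by 1.1, 1.12, 1.79 and 1.07 on the log2 scale, with adjusted p-values of 0.00101 to 0.00135 in edgeR. For this step 0.15% of all genes were called. The fall and the rise share the 24 h libraries. The list of early factors was chosen with earlier results of these data known. In the NAc, Fos was the early factor called, at -1.15 ± 0.19 under chronic morphine, -1.05 ± 0.18 at 24 h and 0.96 ± 0.18 from 24 h to 2 weeks. The shares of all genes called in the same comparisons were 1.69%, 0.163% and 0.277%. The call on Fos at 24 h was lost without NAc_2 (adjusted p 0.0619) and without NAc_2, NAc_6, NAc_23 and NAc_25 together (0.063). Gadd45g, a relative of Gadd45b, was called in the NAc under chronic morphine at -0.56 ± 0.11 (adjusted p 0.0074), where Gadd45b itself was not. Gadd45g was the 1 called gene of the 61 there, beside 1.69% of all genes. At 24 h in the NAc edgeR called 0 of the 61 and DESeq2 called 2. In edgeR 7 of the 61 had an unadjusted p under 0.05, as did 12% of all genes. The alternative settings, DESeq2 among them, gave 3 to 224 called genes in this comparison, beside 30 in the main analysis. At 2 weeks 0 of the 61 were called by either tool in either region, with 4 in the PFC and 5 in the NAc at an unadjusted p under 0.05. Of all genes, 5.02% in the PFC and 6.36% in the NAc passed that unadjusted threshold in edgeR.

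Between the regions, 35 of the 61 partners and other effectors were called, 12 higher and 23 lower in the NAc, and DESeq2 also called 35. Of all genes, 35.8% were called in edgeR. The alternative settings gave 6252 to 7792 called genes, beside 6892 in the main analysis. In the list of BDNF receptors and kin, 7 of 8 tested genes were called. Ntrk2, which encodes its receptor TrkB, ran at 603 to 797 CPM in the PFC and at 573 to 808 CPM in the NAc of saline mice and was not called. Ngfr, the p75 receptor, stood 2.82 ± 0.65 higher in the NAc on the log2 scale, and the sorting receptor gene Sort1 was lower (-1.06 ± 0.12). For the pentraxins, Nptx1 (-2.73 ± 0.32) and Nptxr (-2.39 ± 0.27) were lower in the NAc, as Nptx2 was. For the peptide-processing list, 5 of 8 genes were called and all 5 were lower in the NAc, among them Chgb (-1.37 ± 0.15) and Pcsk2 (-1.19 ± 0.18), while Scg2 was higher. All 8 early transcription factors were lower in the NAc, with a median log2 difference of -2.18.

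The members did not vary as 1 group among libraries of the same treatment and sex. In the PFC, 34 of the 45 pairs of members had a positive correlation of their deviations, the median r was 0.24, and 7 pairs passed an adjusted permutation p of 0.05. The closest were Homer1 with Pcsk1 (r = 0.86, rho = 0.87, r = 0.84 without PFC_10 and PFC_20) and Vgf with Nptx2 (r = 0.85, rho = 0.87, r = 0.81 without PFC_19 and PFC_22), each with an adjusted permutation p of 0.00022 over 30 libraries. Bdnf went with Homer1 (r = 0.57, rho = 0.56, adjusted permutation p 0.033) and with Ptgs2 (r = 0.54, rho = 0.60, 0.01). In the NAc, 21 of 45 pairs were positive, the median r was -0.03, and 19 pairs passed. The highest was Homer1 with Inhba (r = 0.92, rho = 0.91, adjusted permutation p 0.00011), followed by Homer1 with Gadd45b (r = 0.87), Inhba with Gadd45b (r = 0.83) and Bdnf with Pcsk1 (r = 0.80, rho = 0.83). Homer1 with Pcsk1 was the most negative (r = -0.79, rho = -0.71, adjusted permutation p 0.0015). The genes of these pairs are those whose levels went with the striatal score in this region, and the part of the score in the pairs was not tested.

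Over all genes, those whose log2 CPM went most closely with that of Bdnf across the 30 PFC libraries, among 10235 genes above a mean log2 CPM of 3, were Egr1 (r = 0.76), Cdkn1a (0.74), Egr3 (0.70), Mest (0.70) and Pdp1 (0.69). Across the 32 NAc libraries, among 10555 genes, they were Nptx1 (0.92), Sel1l3 (0.91), Nrg3 (0.90), Shisa6 (0.90) and Sept9 (0.89). These values describe variation among libraries of the same treatment and sex, which also differ in depth, and carry no test.

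The positions of the genes are those of build GRCm38. Of the secreted factors and Pcsk1, Bdnf lies on chromosome 2 at 109674700 to 109727007, Vgf on chromosome 5 at 137026392 to 137033351, and Scg2 on chromosome 1 at 79434669 to 79440120. Inhba lies on chromosome 13 at 16011851 to 16031621, and Pcsk1 on the same chromosome at 75089826 to 75134861. Of the synaptic members, Nptx2 lies on chromosome 5 at 144545902 to 144557478 and Homer1 on chromosome 13 at 93299635 to 93405129. Ptgs2 lies on chromosome 1 at 150100031 to 150108227, Gadd45b on chromosome 10 at 80930073 to 80932204 and Sik1 on chromosome 17 at 31844250 to 31855804. Counts of 3 members could be altered by an overlapping gene model. The counts come with a row of ambiguous reads, 0.612 to 0.868% of a library. Reads shared by 2 gene models may thus have been left out of both. Bdnf and Inhba overlap models on the other strand, and Homer1 overlaps 2 on its own strand. Whether reads were counted by strand is not given in the sources used here.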

How the data were processed

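The 62 mouse libraries were measured by total RNA sequencing of PFC and NAc punches, and 189 libraries of rats were not used. The values are raw counts of reads per gene that the authors deposited, whole numbers per Ensembl gene with rows for unassigned reads, per the file headers. The submitters' processing notes name FastQC, cutadapt, Trimmomatic, STAR, HISAT2 and RSEM and the build GRCm38, with no role or order, so which aligner and counter made this table is not given in the sources used here. Reads in no feature were 4.50 to 8.30% (median 5.43%) and reads with no unique alignment 11.2 to 17.5% of a library; these rows stayed out of library sizes and tests. Symbols and exon lengths came from GENCODE annotation of GRCm38, which matched 45143 of 46078 identifiers.

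Tests used edgeR 4.0.16 in R 4.3.3: TMM scaling, filterByExpr, and a quasi-likelihood fit of treatment by sex means within a region, averaged over the sexes, or of region by treatment by sex means over all 62 libraries. P-values were adjusted by Benjamini-Hochberg over all genes tested, and a gene was called at an adjusted p under 0.05. Levels are CPM with 1 TMM scaling over 62 libraries, and log2 CPM uses a prior count of 2. Marker scores are mean log2 CPM of each list. Correlations used deviations from treatment by sex means, with 100000 permutations within those groups. The alternatives were DESeq2 1.42.0, median-of-ratios scaling, no filter, sex as an additive term, 2 surrogate variables (sva 3.50.0), a cortical marker score and a replicate block. Each library was also left out in turn, or each library number in the fits over both regions. A striatal marker score and leaving out 7 libraries together were added after seeing the data. The scripts were tested on simulated data.

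The 10 genes, the partner lists and the markers were chosen with earlier results of these data known. Each stage against saline gives the 10 genes by value or range, the other comparisons give counts over the 10 and name some of them, and other genes come only from those lists, those called first and at most 5 a list by size of change. Genes like Bdnf were ranked by Pearson's r of log2 CPM deviations from treatment by sex means, among genes above a mean log2 CPM of 3.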

Additional observations from a re-analysis of the deposited data

Results flagged for a closer look

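Within the 80 groups of 10 genes, 2 regions and 4 treatments, 11 held a library set apart from the rest of its group by Dixon's test at the 95% level, or 13.75%; chance gives about 1 in 20. PFC_10, the library with 5.18 M reads in genes, held 5 of the 11. In the 2-week PFC group it had 95.8 CPM of Homer1 where the other libraries ran from 200.5 to 350.1, 11.4 CPM of Pcsk1 against 37.4 to 54.0, and 20.6 CPM of Sik1 against 34.6 to 44.7. It also had 44.3 CPM of Ptgs2 against 14.1 to 21.6, and 0 CPM of Inhba against 2.38 to 4.81, where 0 reads allow up to 0.579 CPM.

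PFC_25, the chronic PFC library with the lowest sum of cortical markers, had 103 CPM of Homer1 against 225 to 365 in the others, and 365 CPM of Scg2 against 210 to 271. The saline PFC library PFC_7 had 16.7 CPM of Gadd45b against 19.3 to 20.5. In the NAc, the saline library NAc_6 had 363 CPM of Vgf against 318 to 333, and NAc_3 had 20.2 CPM of Sik1 against 25.4 to 29.9. The 2-week library NAc_14 had 71.2 CPM of Nptx2 against 26.6 to 40.3.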

How the results depend on the processing

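Over all alternatives run, no gene named here was called in 2 opposite directions. Of the 10 genes, the count called in the PFC under chronic morphine was 2, and 1 with no low-count filter or with sex as an additive term, each time without Gadd45b, and 3 without the libraries that stand apart (Homer1 added). At 24 h in the PFC it was 1, and 0 with sex as an additive term. From chronic morphine to 24 h in the PFC it was 0, and 1 with DESeq2. From 24 h to 2 weeks in the PFC it was 0, and 1 with DESeq2, with 2 surrogate variables or without the 7 libraries that stand apart. In the NAc under chronic morphine it was 1, and 2 with DESeq2 or median-of-ratios scaling (Vgf), 3 with the striatal score (Vgf, Pcsk1) and 4 with 2 surrogate variables (Vgf, Scg2, Pcsk1). At 24 h in the NAc it was 1, 2 with 2 surrogate variables (Inhba) and 0 without the libraries that stand apart. From 24 h to 2 weeks in the NAc it was 0, and 1 with DESeq2 or the striatal score (Sik1). The causes were not tested.

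Leaving out 1 library at a time gave 1 to 2 called members in the PFC under chronic morphine and 0 to 1 at 24 h in either region. From 24 h to 2 weeks in the PFC it gave 0 to 1 (Sik1 gained without PFC_10, PFC_16 or PFC_17). In the NAc under chronic morphine it gave 1 to 2 (Vgf gained without NAc_9, NAc_14, NAc_17, NAc_18 or NAc_31). Between the regions all libraries of 1 number were left out at a time, and 8 to 9 members were called. The counts over all genes moved more. Over the alternatives and the fits without 1 library they ran from 44 to 182 in the PFC under chronic morphine (75 in the main analysis), 11 to 49 at 24 h (14), 23 to 127 from 24 h to 2 weeks (27), 113 to 928 in the NAc under chronic morphine (310), 3 to 224 at 24 h (30) and 26 to 147 from 24 h to 2 weeks (51).

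Libraries of the 2 regions share numbers. The deviations of same-numbered libraries correlated with a median r of 0.12 over 30 pairs (from -0.04 to 0.29, 19 above 0.1). For 88 other pairs the median r was -0.04, and 12 of 30 matched their own number best. How many would match by chance was not tested. Same-numbered libraries were thus more alike in the median than other pairs, and the labels do not say whether they share a mouse. The main tests between the regions treated them as separate, and the replicate block was an alternative. With the replicate block, 9 members were called between the regions and 0 in the 3 regional differences of effects, as without it. Low counts limited Inhba, and Bdnf and Ptgs2 in the NAc, which had as few as 0, 12 and 14 reads in a library. Those libraries were PFC_10, NAc_17 and NAc_6, with 5.18, 22.4 and 28.3 M reads in genes.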
